A study of Mus musculus with 78 samples.

Results

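Single mouse blastomeres were sequenced at the 8-cell stage, and 6 of the 26 blastomeres of the 8-cell gene table expressed far fewer genes than the other 20. These 6 gene-poor blastomeres are described here against the 20 others. They were chosen by 1 measure alone, fewer than 5500 genes with an FPKM above 1. FPKM counts fragments per kilobase of transcript and per M fragments (M, mega), and is thus a level relative to the total of the same blastomere. The choice used the gene values themselves, so no difference in gene level between the groups was tested, and levels are given as a description. The whole series has 50 blastomeres in its gene tables, 24 of them at the 4-cell stage.

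All blastomeres came from embryos of a cross between mice carrying the Brainbow2.1 cassette at the Rosa26 locus and mice carrying a Cre recombinase fused to an oestrogen receptor under the CAG promoter. Each embryo therefore held 1 copy of the colour cassette and 1 copy of the inducible Cre. Embryos were collected at the 2-cell stage, 46 hours after hormone injection, exposed to 4-hydroxytamoxifen for 2 hours in vitro and cultured in KSOM medium to the 4-cell or 8-cell stage. Gene-poor and other blastomeres shared this treatment, and no untreated blastomere was compared here. The column names do not give the embryo, and blastomeres were not treated as replicates.

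At the 8-cell stage the mouse embryo still holds transcripts stored by the oocyte and carries a growing set that its own genome has made since the 2-cell stage. Maternal transcripts are removed in steps by deadenylation and decay, while transcripts of housekeeping complexes and of the first lineage regulators accumulate. Blastomeres then flatten against one another (compaction), become polarised along an apical and a basal side, and later form trophectoderm and inner cell mass.

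The 6 gene-poor blastomeres, named S53 to S58 in the table, expressed 5106, 5391, 4963, 5248, 3548 and 4263 genes. The 20 others expressed between 5884 and 8078 genes, with a median of 6844.5. The nearest blastomeres on either side of the boundary were S54 with 5391 genes and S67 with 5884. The estimated number of fragments behind each gene-poor blastomere was 18.5, 18.4, 15.3, 18.6, 2.33 and 12.6 M in the same order. For the others it lay between 14.4 and 21.7 M, so S57 and S58 were shallower than every other blastomere and S53 to S56 were within the range. The study's quality control left out a blastomere for too few uniquely mapped read pairs. The estimate for S57 lay under the limit given there, although estimated fragments are not the study's own read counts. With each blastomere thinned to the depth of S57 by the binomial formula, 3543 to 5374 genes were expected in the gene-poor blastomeres and 5856 to 8028 in the others. This covers the counting error of fragments only, which are not independent molecules, and the part of depth beyond it was not tested. Whether genes called missing or lost here were absent from the cell or not captured in its library was not tested. The study lists mapping and mitochondrial rates per library, but these were not used because no column was assigned to a library.

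**Figure D1:**
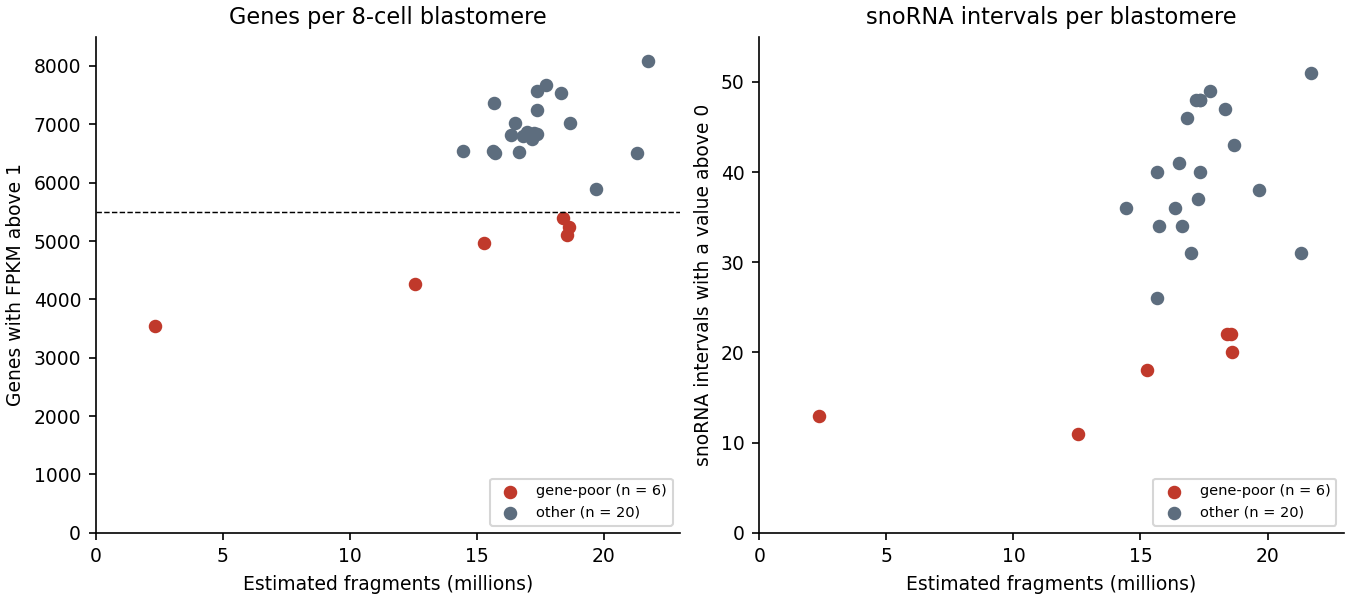
Left, number of genes with an FPKM above 1 (y axis) against estimated fragments in M, mega (x axis) for the 26 blastomeres of the 8-cell table; the dashed line marks 5500 genes. Right, number of snoRNA intervals with a value above 0 against the same depth: the 6 gene-poor blastomeres show 11 to 22 and the 20 others 26 to 51, and 4 of the gene-poor ones lie within the depth range of the others.

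The label was checked against cell type markers. Dppa3, a maternal factor that protects the maternal genome from DNA demethylation, was the most abundant gene in each of the 6, at 4211, 3720, 4868, 3847, 10166 and 4740 FPKM. In the others it ranged from 2474 to 3693, so every gene-poor value lay above every other value. The 13 oocyte and blastomere markers were all listed, which does not speak for their level. By the classes defined below, 10 of them were analysed. Of these 7 were kept, 1 was lowered (Pou5f1) and 2 were lost (Padi6 and Tle6), so Dppa3 does not stand for all markers. The summed level of 12 cumulus and granulosa cell markers, of which 3 were listed, was 0 in all 6 gene-poor blastomeres and at most 9.51 FPKM in the others. Prm1, Prm2, Tnp1 and Tnp2, the sperm markers, summed to at most 23.3 FPKM in a gene-poor blastomere and 10.3 in another; 2 of these 4 genes were listed.

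The 6 blastomeres also shared the state of their sex chromosomes. The Y-linked genes Ddx3y, Eif2s3y, Kdm5d and Uty were at 0 in all 6. Xist, the RNA that coats the inactive X chromosome, stood at 3.36, 6.60, 2.59, 5.49, 4.80 and 13.5 FPKM. Of the 20 others, 12 had Y-linked transcripts, and in 8 these summed to 1 FPKM or less, with Xist at 1.27 to 25.2. X-linked genes gave 4.27% to 5.31% of the summed FPKM in the gene-poor blastomeres, 4.21% to 4.75% in the 8 others without Y-linked transcripts and 2.75% to 3.27% in the 12 with them. By these transcripts the gene-poor blastomeres resembled the others without Y-linked transcripts, and they also stand next to each other in the table. The 8 others without Y-linked transcripts, S59 to S66, are adjacent too. By order and depth the 6 columns resemble the lineage-resolved blastomeres of 1 embryo in the study's own list of libraries, and the 8 those of another, although no column was assigned by order or depth here. The 6 are thus likely blastomeres of 1 embryo, and what belongs to that embryo cannot be told apart from what goes with few genes. The comparison with the 8 would then likewise set 1 embryo against another.

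Levels were compared for the 7353 genes with a mean log2(FPKM + 1) of at least 1 over all 26 blastomeres, of 15342 listed. A gene was called lost where the median of the others was above 1 FPKM, the median of the gene-poor blastomeres was at or under 1, and the difference of the medians of log2(FPKM + 1) was at least 1. It was called lowered for a fall of the same size with both medians above 1, raised for a difference of at least 1 upward, and kept in between. By these rules 2043 genes were lost (27.8%), 1095 lowered (14.9%), 3589 kept (48.8%) and 626 raised (8.51%). Of the kept genes, 2901 had both medians above 1 and 612 had both at or under 1. The mean over all blastomeres weighs the 20 others most, so a gene present only in the gene-poor blastomeres passed less easily than a gene they lacked. Without any filter 2084 genes were lost and 651 raised. Groups that did not overlap at all were rare: 25 genes (0.34%) were lower and 51 genes (0.694%) higher in every gene-poor blastomere than in any other. After scaling each blastomere by its median ratio to the geometric mean, 35 genes were lower and 31 higher without overlap. With a boundary of 5000 genes, 108 were lower and 45 higher, so which side held more such genes depended on the setting. Of the 13 oocyte and blastomere markers 10 were analysed, with 7 kept, 1 lowered and 2 lost, and their median difference was -0.49 on the log2 scale, against -0.61 over all analysed genes. The marker median was -0.013 without S57, against -0.41 over all analysed genes, and also -0.013 without S53, against -0.56.

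**Figure D2:**
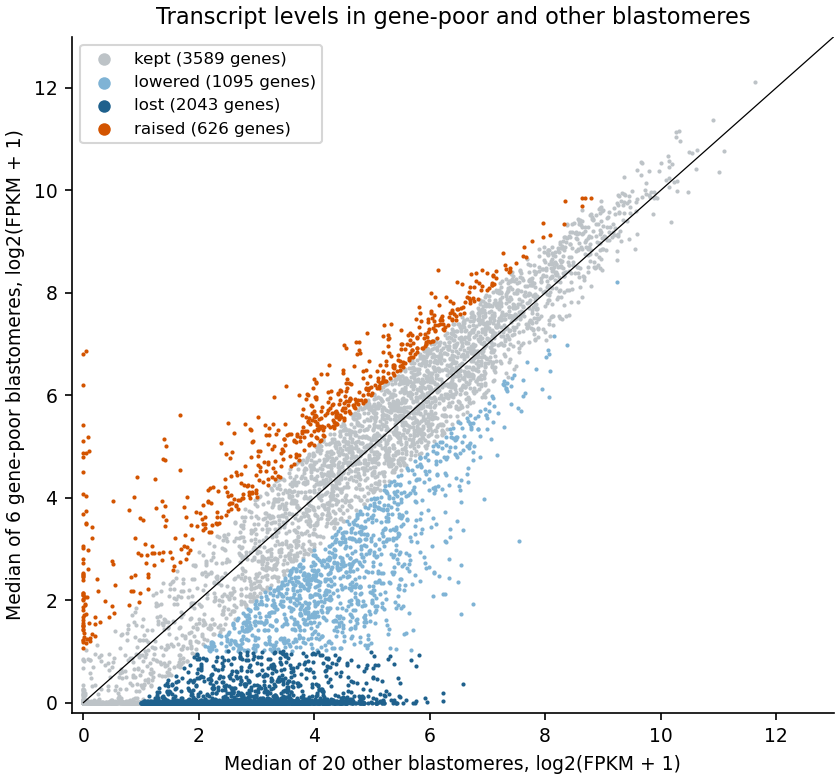
Median log2(FPKM + 1) of the 6 gene-poor blastomeres (y axis) against that of the 20 others (x axis), with 1 point for each of 7353 genes coloured by class; the line marks equal medians. Lost genes (2043) lie on or near the floor over a wide range of levels in the others, and the highest genes lie along the line.

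Without S57, the blastomere of lowest depth, 2107 genes (28.7%) were lost, 701 (9.53%) lowered, 3687 (50.1%) kept and 858 (11.7%) raised, and 32 (0.435%) lay below and 80 (1.09%) above without overlap. Of the lost genes 1931 (94.5%) kept that class, and of the raised genes 548 (87.5%) did. The lowered class was the least steady, with 521 genes (47.6%) the same. Lost and lowered genes together numbered 3138 (42.7%) with S57 and 2808 (38.2%) without it. The median difference over all analysed genes was -0.61 on the log2 scale with S57 and -0.41 without. Against the 8 others without Y-linked transcripts, 1811 genes (24.6%) were lost, 1075 (14.6%) lowered, 3581 (48.7%) kept and 886 (12%) raised, and the groups did not overlap for 95 lower (1.29%) and 184 higher (2.5%) genes, a count that grows when fewer blastomeres are compared.

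Loss was not all or none from cell to cell. A core of 2927 genes had an FPKM above 1 in all 20 others. S53 lacked 248 of them, S54 215, S55 324, S56 195, S57 711 and S58 467, which is 6.66% to 24.3% of the core. That the gene-poor blastomeres lacked genes above 1 FPKM follows from how they were chosen, and the counts only describe which ones. The core was also defined by the others, so none of them could lack a core gene. When each of the others was left out in turn, it lacked 0.0683% to 3.14% of the genes above 1 FPKM in the remaining 19. Different gene-poor blastomeres lacked different core genes: 1749 were missing in none of the 6, 593 in 1, 326 in 2, 158 in 3, 67 in 4, 31 in 5 and 3 in all 6. The 6 blastomeres were also less alike among themselves. Across the analysed genes, Spearman's rho between pairs of gene-poor blastomeres was 0.553 to 0.647 (15 pairs), against 0.649 to 0.848 between pairs of others (190 pairs), and 0.540 to 0.693 between a gene-poor and another blastomere. These are correlations across genes within pairs of libraries that differ in the number of genes at 0.

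The 3 core genes missing from all 6 were Toe1, Plekhm1 and Uhrf1bp1l. Toe1, a deadenylase that trims the 3' ends of small nuclear RNAs, had an FPKM of 0.0538 in S53 and 0 in the 5 others of the group. In the 20 other blastomeres it ranged from 9.82 to 73.2, with a median of 41.9. Plekhm1, an adaptor for the fusion of late endosomes with lysosomes, was at most 0.0776 in the gene-poor blastomeres and 3.99 to 43.3 in the others. Uhrf1bp1l reached 0.944 in S54 and 0.874 in S55, and spanned 1.26 to 20.2 in the others, so for this gene the gap was narrow.

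The other 7 lost genes with the largest falls among those whose groups did not overlap were Enpp3, Pdia5, Hinfp, Steap3, Eif2ak1, Nsf and Itch. Enpp3, a nucleotide pyrophosphatase of the cell surface, was at 0 in 4 gene-poor blastomeres, at 0.0385 in S53 and at 1.07 in S57, against 7.09 to 100.2 in the others. Pdia5, a protein disulfide isomerase of the endoplasmic reticulum, was at 2.14 in S57 and at 0 in the remaining 5, against 9.16 to 132. Hinfp, a transcription factor of histone H4 genes, was at 0.0256 in S56 and otherwise at 0. Its median in the others was 27.5, although 1 of them had only 0.0281. These genes were absent or nearly so in at least 5 of the 6 gene-poor blastomeres.

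Eif2ak1, the haem-regulated kinase that phosphorylates the initiation factor eIF2, was at 2.48 in S54, 0.0255 in S55 and 0 in the remaining 4, and at 3.66 to 45.1 in the others. Nsf, the ATPase that disassembles membrane fusion complexes, was at 0 in all 6 and had a median of 13.6 in the others, with a lowest value of 0.0170. Itch, a ubiquitin ligase, was at or under 0.0401 in the 6 and had a median of 11.6 in the others. Steap3, a metalloreductase of iron uptake, was at 1.19 in S53, 0.135 in S57 and 0 in the remaining 4. It spanned 2.41 to 44.7 in the others, and its 4-cell median was 0 over all 24 blastomeres but 1.60 FPKM over the 20 with more genes.

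Another 9 genes were lowered with no overlap, which means that transcripts remained in part of the gene-poor blastomeres. Btbd18, a regulator of germline piRNA transcription, was at 20.7, 0.0308, 0.0186, 14, 14.5 and 0.248 FPKM in S53 to S58, and at 42.8 to 166 in the others. Usp33, a deubiquitinase, was at 44.9 in S53, at 3.46 to 9.31 in S54, S55 and S56 and at or under 0.0188 in S57 and S58, with a median of 92.2 in the others and no overlap. Kif23, the kinesin of the central spindle, was at 0 in S55 and S58 and at 5.90 to 25.8 in the remaining 4, against 26.2 to 135. The transcripts of these genes were thus present at a reduced level in some gene-poor blastomeres and missing in others.

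Nr5a2, an orphan nuclear receptor that activates zygotic genes, was present in all 6, at 13.3, 3.96, 15.4, 12, 15 and 20.9 FPKM. Its range in the others was 24.7 to 85.7. Ddx5, an RNA helicase, was at 207 to 324 in the gene-poor and 438 to 825 in the other blastomeres. Cttn, Psap, Mybbp1a and Elovl6 completed this set, with differences of -2.29, -2.10, -1.64 and -1.13 on the log2 scale. Nr5a2 and Ddx5 were thus shifted in all 6 blastomeres, while Cttn and Psap were nearly missing from S55, at 0 and 1.15 FPKM.

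**Figure D3:**
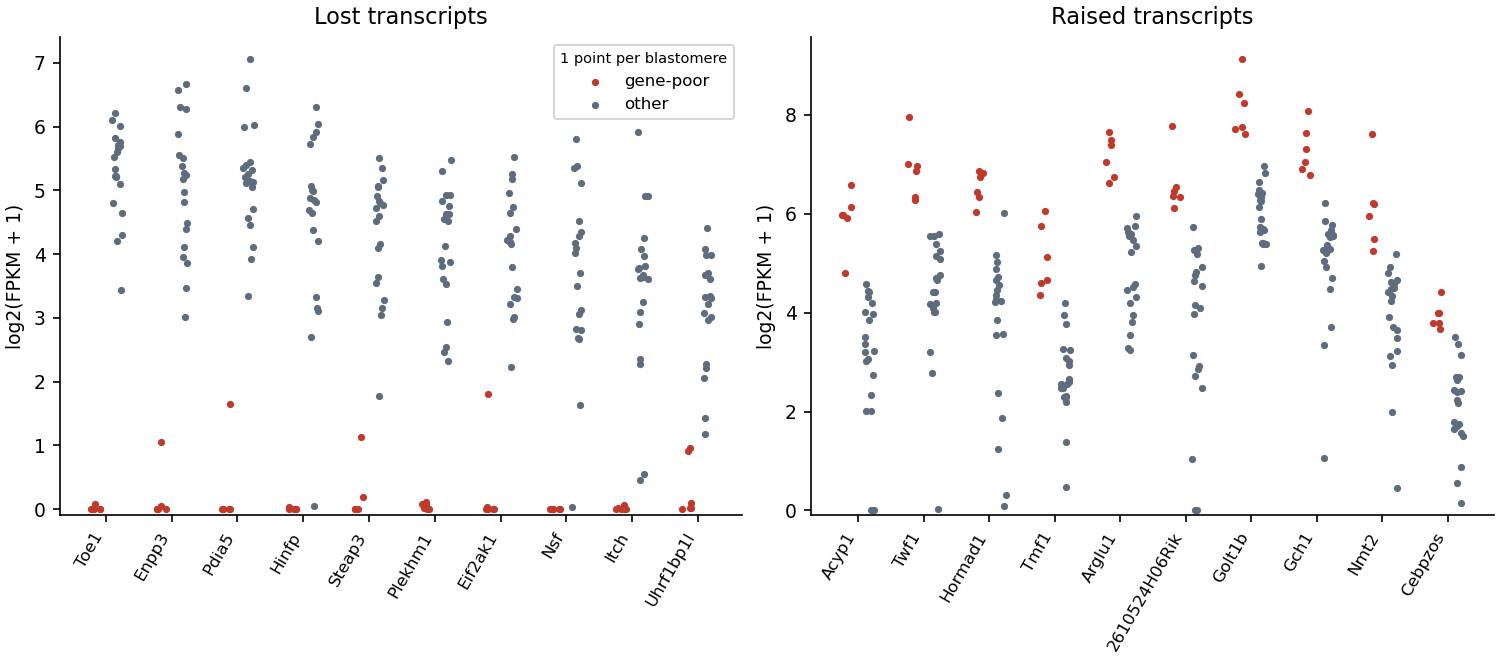
log2(FPKM + 1) of the 10 lost (left) and 10 raised (right) genes with the largest differences among those whose groups did not overlap; each point is 1 blastomere, 6 gene-poor and 20 other. Toe1 and Nsf sit at or near 0 in all 6 gene-poor blastomeres, and Golt1b lies above every other blastomere in all 6.

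Among the raised genes, the 10 largest differences without overlap were those of Acyp1, Twf1, Hormad1, Tmf1, Arglu1, 2610524H06Rik, Golt1b, Gch1, Nmt2 and Cebpzos. Acyp1, an acylphosphatase, was at 59.7, 69.6, 27, 61.6, 95.3 and 61.9 FPKM in S53 to S58. It spanned 0 to 23 in the others. Twf1, which binds actin monomers, was at 76.3 to 248 against 0.0158 to 46.9. The highest Twf1 value was in S57, and the remaining 5 gene-poor values also lay above all others.

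Hormad1, a protein of meiotic chromosome axes, was at 64.8 to 115 in the gene-poor blastomeres and at 0.0683 to 64 in the others. Arglu1, a splicing-related protein, was at 97.8 to 200 against 8.48 to 61.1. Golt1b, a vesicle transport protein, was at 194 to 556 against 29.9 to 124, and Gch1, the first enzyme of tetrahydrobiopterin synthesis, at 109 to 269 against 1.08 to 73. All 10 were also expressed at the 4-cell stage, with 4-cell medians of 3.71 (Cebpzos) to 67 (Golt1b).

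The kept genes of highest level were Dppa3, Hspa8, Rpl41, Gm11517, Npm1 and Obox6. Rpl41, a protein of the large ribosomal subunit, was at 2822, 2529, 3442, 2487, 4097 and 2198 FPKM in S53 to S58, and at 1259 to 2427 in the others. Hspa8, a constitutive chaperone, was at 1462 to 2185 against 1091 to 2591. Npm1, a nucleolar histone chaperone, was at 1468 to 2715 against 1144 to 1825. Obox6, a homeobox factor of the Obox family, was at 929 to 2298 against 1104 to 1991. Gm11517 was at 1511 to 2314 against 1150 to 2214. The 6 most abundant kept genes were thus of the same order in both groups, and only Dppa3 did not overlap. The 100 highest genes of each blastomere gave 21.5% to 31.2% of its summed FPKM in the gene-poor group and 19.6% to 23.2% in the others, with the highest share in S57.

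The 4-cell table gave a measure from other cells that the choice did not use. Each analysed gene was sorted by its median over the 24 4-cell blastomeres, a sign of how much transcript was already there before the 8-cell stage. The 2 tables were normalised separately, so the 4-cell level only sorts genes here. Of 969 genes with a 4-cell median at or under 1 FPKM, 442 (45.6%) were lost. This share was 36.1% against the 8 others without Y-linked transcripts, 6.84% without the filter on low values, and 15.1% with an expression threshold of 5 FPKM. For genes with a 4-cell median above 10 it was 12.1% in the main comparison, 12.1% without the filter and 19.7% at 5 FPKM, so the order turned around in the last 2 settings. Of 2236 genes at 1 to 10 FPKM 1099 (49.2%) were lost, of 3180 at 10 to 100 FPKM 501 (15.8%), and of 968 above 100 FPKM 1 (0.103%). Counting lowered genes too, the shares were 48.2%, 61.2%, 39.4% and 5.17%. Without S57 the lost shares were 46.7%, 49.8%, 16.9% and 0.207%.

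**Figure D4:**
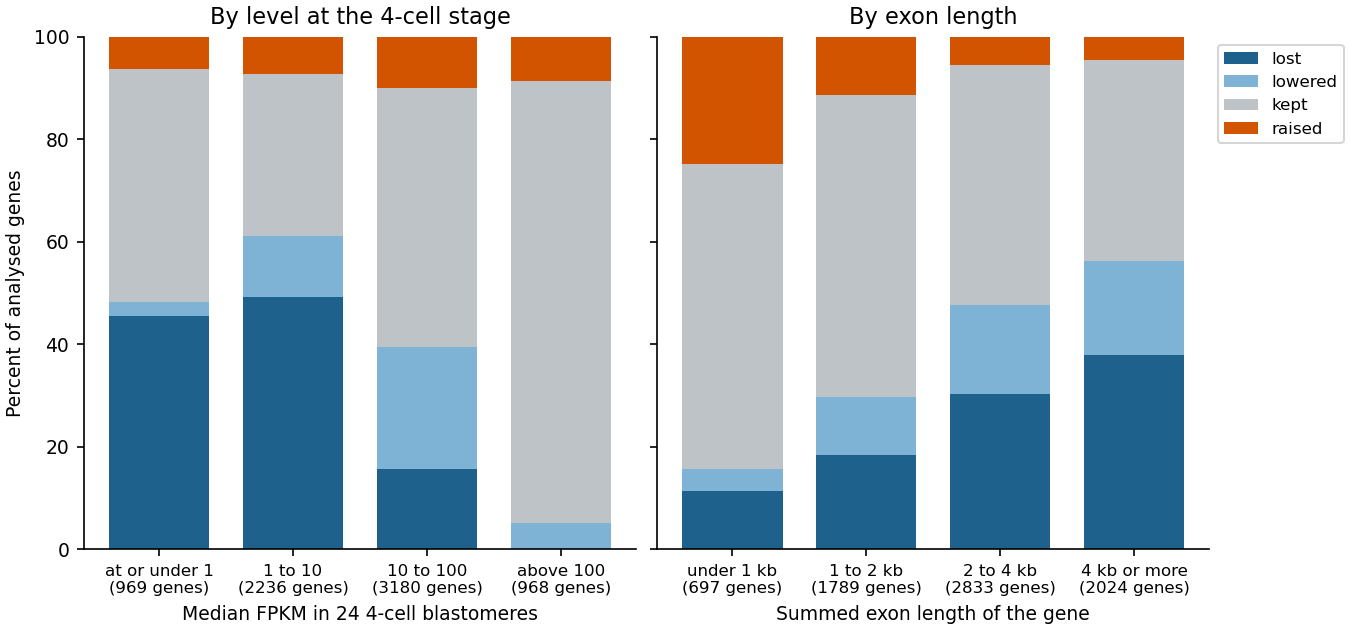
Percent of analysed genes that were lost, lowered, kept or raised (y axis) in bins of the 4-cell median FPKM (left) and of summed exon length (right), with the number of genes under each bar. The lost share is 45.6%, 49.2%, 15.8% and 0.103% across the 4-cell levels, in an order that depends on the expression threshold and the filter, and rises from 11.5% to 38% across the lengths, a rise that did not hold in every bin of 8-cell level.

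Genes with a low 4-cell median were also weakly expressed at the 8-cell stage, so the same shares were taken among genes of like 8-cell level, by the mean over all 26 blastomeres. At a mean of 1 to 3 FPKM, 43.2% of genes with a 4-cell median at or under 1 were lost (346 of 801; exact 95% interval 39.7% to 46.7%, for counting error over genes only). The share was 57% (of 996) for genes at 1 to 10 FPKM at the 4-cell stage and 55.4% (56 of 101) for those at 10 to 100. At a mean of 3 to 10 FPKM the order was the other way, with 59.1% (94 of 159), 47.4% (516 of 1089) and 46.9% (330 of 704). At a mean of 10 to 30 FPKM it was 22.2% (2 of 9), 10.3% (15 of 146) and 8.74% (112 of 1282). Over all 4-cell levels the lost share was 51.1% at an 8-cell mean of 1 to 3 FPKM, 48.2% at 3 to 10, 9.01% at 10 to 30, 0.25% at 30 to 100 and 0% above 100. A gene whose median in the others was at or under 1 FPKM could not be called lost, and the differences between bins were not tested.

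Among lost genes with a 4-cell median at or under 1, the 5 with the highest level in the others were Eif2s3y, Mir763, Dap, Snora28 and Steap3. Eif2s3y is Y-linked, and its median of 52.5 FPKM in the others came from the 12 with Y-linked transcripts. Dap, a protein linked to autophagy, was at 67.4 in S56, 3.54 in S55 and 0 in the remaining 4 gene-poor blastomeres, and above 1 in 19 of the 20 others with a median of 32.5. Mir763 and Snora28 are intervals of small RNAs and stood at 0 in all 6. Mir763 was above 1 FPKM in 17 of the 20 others, and Snora28 in 12.

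In the same bin of 4-cell level 61 genes (6.3%) were raised, against 8.51% of all analysed genes. Sdc4, a proteoglycan of the cell surface, was at 52.3, 43.5, 0, 0, 67 and 64 FPKM in S53 to S58 and at 0 to 39.6 in the others. Grtp1 was at 46.6, 104, 75.1, 44.9, 216 and 7.07 against 0 to 59.5. Each of these genes was thus missing or low in some gene-poor blastomeres and above every other blastomere in some.

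Mir763 lies on chromosome 10 inside an intron of Hmga2, on the same strand, and its mature microRNA is shown because the interval was silent in every gene-poor blastomere while its host was not. The RefSeq sequence on GRCm38.p6, at chr10:120448052-120448073 on the minus strand, is given with the seed, bases 2 to 8, in capitals:
mmu-miR-763: cCAGCUGGgaagaaccaguggc
Hmga2, a chromatin protein of growing and embryonic cells, was at 91.9, 58.1, 48, 102, 121 and 70.3 FPKM in S53 to S58 and at 5.88 to 81.6 in the others, with medians of 80.4 and 43. The host was thus at least as high in the gene-poor blastomeres, where its intronic interval had no value. Poly(A)-primed libraries of long fragments do not measure mature microRNAs, and whether reads at such an interval came from the small RNA or from unspliced host transcript cannot be told apart.

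Snora28 lies in an intron of Eif5, an initiation factor that was kept, at 286 to 1130 FPKM in the gene-poor and 423 to 773 in the other blastomeres. The snoRNAs are small nucleolar RNAs that guide modification of ribosomal RNA, and fewer of their intervals had a value in the gene-poor blastomeres. Of 92 snoRNA intervals listed, 22, 22, 18, 20, 13 and 11 had a value above 0 in S53 to S58. The 20 others had 26 to 51, with a median of 40, so the groups did not overlap. The same held for all genes above 0, 4286 to 6898 in the gene-poor blastomeres against 7196 to 9608, so the lack of overlap was not particular to snoRNAs. S53, S54 and S56 had 20 to 22 intervals at 18.4 to 18.6 M fragments. At the depth of S57, 6.78 to 19.6 intervals were expected in the gene-poor blastomeres and 13.2 to 42.6 in the others, and these ranges overlapped.

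Of the 92 snoRNA intervals 88 lay inside an intron of a listed gene on the same strand. Their 63 analysed host genes fell into 4 lost, 6 lowered, 52 kept and 1 raised, against 27.8% lost, 14.9% lowered, 48.8% kept and 8.51% raised over all analysed genes. Their median difference was 0.08 on the log2 scale, against -0.61. Many hosts are genes of ribosomal proteins and translation factors. Snora70, in an intron of Rpl10, was above 0 in 14 of the 20 others and in none of the 6, while Rpl10 was at 905 to 1802 FPKM in the gene-poor and 649 to 1162 in the other blastomeres. Snord35a, in Rpl13a, was above 0 in 13 others and in none of the 6. Snord2, in Eif4a2, was above 0 in 15 and in none. Of 39 snoRNA intervals above 0 in at least 10 others, 10 were at 0 in all 6 gene-poor blastomeres, and only Snord52 was above 0 in all of them. Of the same 39, 18 were above 0 in at most 1 gene-poor blastomere and 15 in 3 or more. Their medians went both ways, with Snord104 at 60.3 FPKM in the gene-poor and 23.6 in the other blastomeres, and Snora81 at 0 and 7.48. MicroRNA intervals were fewer too, 6 to 22 of 149 above 0 in the gene-poor blastomeres against 9 to 38, with overlap. Of their 57 analysed hosts 9 were lost, 19 lowered, 27 kept and 2 raised, against 27.8% lost and 42.7% lost or lowered over all analysed genes. Their median difference was -0.97, which was -0.36 without S57.

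Exon length moved with the classes. The summed exon length was known for 7343 of the 7353 genes, and its median was 3343 bases for lost, 3172.5 for lowered, 2369 for kept and 1578 for raised genes. Of genes under 1 kb 11.5% were lost and 24.8% raised, and of genes of 4 kb or more 38% were lost and 4.45% raised. At like 8-cell level the lost share did not rise with length throughout. At a mean of 1 to 3 FPKM it was 24.4%, 37%, 51.3% and 61.3% from the shortest to the longest bin, at 3 to 10 FPKM 35.2%, 46.1%, 56.1% and 43.2%, and at 10 to 30 FPKM 3.03%, 13.3%, 11.1% and 3.42%. The share raised fell from each bin of length to the next in the 4 bins of 8-cell level up to 100 FPKM. Above 100 FPKM it did not, at 17.3%, 5.44%, 0.441% and 4.17%. At a mean of 30 to 100 FPKM, 39.9% of genes under 1 kb were raised (57 of 143), 13.9% at 1 to 2 kb (53 of 382), 4.61% at 2 to 4 kb (24 of 521) and 3.23% at 4 kb or more (5 of 155). Without S57 the share raised no longer fell throughout at a mean of 1 to 3 FPKM, at 16%, 8.85%, 6.8% and 7.31%.

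Genes under 1 kb gave 22.8% to 30.8% of the summed FPKM in the gene-poor blastomeres and 16% to 24% in the others. Genes of 4 kb or more gave 5.68% to 7.63% against 8.34% to 11.7%, without overlap. The part of length in the gene lists that follow was not tested. The median exon length was 2719 bases over all analysed genes, 5393 for the list of maternal mRNA decay, 4022 for nuclear pore and transport, 3743.5 for H3K9 methylation and heterochromatin and 3617.5 for DNA methylation.

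**Figure D5:**
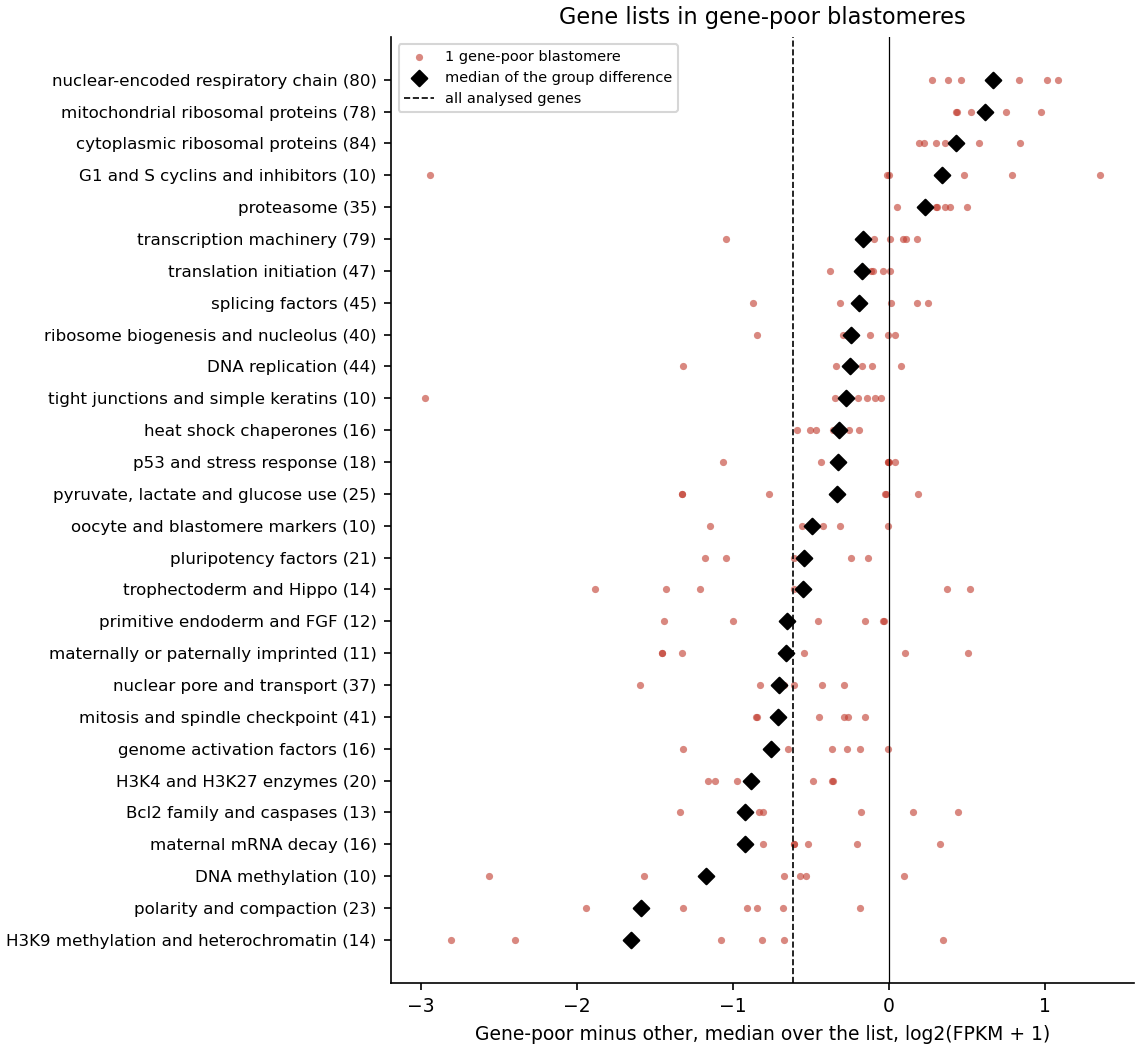
Gene-poor minus other blastomeres, median over the analysed members of each gene list (x axis, log2(FPKM + 1)); diamonds show the median of the group differences, red points the 6 gene-poor blastomeres against the median of the others, and the number of members stands in parentheses. The dashed line is the median of all 7353 analysed genes (-0.61); respiratory chain, mitochondrial and cytoplasmic ribosomal protein lists lie above 0 and H3K9 methylation and polarity lists lie below -1.5.

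Of 84 analysed genes of cytoplasmic ribosomal proteins none was lost or lowered, 82 were kept and 2 raised, against 27.8% lost, 14.9% lowered, 48.8% kept and 8.51% raised over all analysed genes. The median difference was 0.43. Rps14 was at 1549, 1356, 1729, 1136, 1177 and 1100 FPKM in S53 to S58 and at 608 to 1060 in the others. It was kept by the rule and yet did not overlap between the groups. The abundant members Rpl41 and Rplp0 differed by 0.47 and 0.30.

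Of 47 translation initiation genes 38 were kept, 4 lost, 3 lowered and 2 raised, against 27.8% lost, 14.9% lowered, 48.8% kept and 8.51% raised over all analysed genes. The abundant Eif5a, Eif4a1 and Eif2s2 differed by 0.08, 0.03 and 0.46. Eif4g2, a scaffold of cap-independent initiation, was at 53 to 121 FPKM in the gene-poor and 131 to 272 in the other blastomeres, and Eif6, which keeps the large subunit apart until it is mature, at 690 to 856 against 366 to 632. Neither gene overlapped between the groups, although both were kept by the rule. Of 40 genes of ribosome biogenesis 33 were kept, among them Npm1, Nop56 and Nhp2, 6 lowered and 1 lost.

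Nuclear-encoded genes of the respiratory chain and of the mitochondrial ribosome held the largest shares of raised genes among the long lists. Of 80 respiratory chain genes 21 were raised, 55 kept, 4 lowered and none lost, against 8.51% raised and 27.8% lost over all analysed genes, and the median difference was 0.66. Atp5g1, a subunit of the ATP synthase ring, was at 550 to 792 FPKM against 146 to 404, and Ndufb7, of complex I, at 273 to 448 against 69.5 to 213. Atp5b, the catalytic subunit and the most abundant member, was not higher, at 459 to 577 against 556 to 953. Of 78 mitochondrial ribosomal protein genes 17 were raised, 52 kept, 5 lowered and 4 lost. Mrps18c was at 220 to 418 against 46.5 to 167, Mrpl42 at 205 to 321 against 27.9 to 189, and Mrpl58 at 329 to 551 against 26.9 to 241.

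The lists' median exon lengths are 748, 1129.5 and 763.5 bases. Over all analysed genes the median difference was 0.51 under 1 kb and 0 at 1 to 2 kb. Whether the lists differ from other genes of their length was not tested. No gene of the mitochondrial genome was listed.

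Proteasome genes, which encode the particle that degrades ubiquitinated proteins, were kept in 31 of 35 cases, with 2 raised, 2 lowered and none lost, against 27.8% lost, 14.9% lowered, 48.8% kept and 8.51% raised over all analysed genes. Psmb2 was at 976, 836, 1242, 621, 1029 and 878 FPKM in S53 to S58 and at 278 to 600 in the others. Psma7 was at 358 to 535 against 174 to 289. The median difference of the list was 0.23, and it was -0.045 after scaling each blastomere by its median ratio to the geometric mean, a step that lowered the median of all analysed genes from -0.61 to -0.74. None of the other lists plotted changed sign with that scaling.

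Of 23 analysed genes of cell polarity and compaction 11 were lost, 3 lowered, 8 kept and 1 raised, against 27.8% lost over all genes, and the median difference was -1.59. The 3 most abundant members, the small GTPases Rhoa and Cdc42 and the apical protein Crb3, were kept, with differences of -0.57, -0.01 and 0.77. Cdh1, the E-cadherin of adherens junctions, was at 0, 0.0493, 1.49, 0.353, 0 and 5.62 FPKM in S53 to S58, and at 0.521 to 28.7 in the others with a median of 7.90. Nectin2, an adhesion receptor, Afdn, which ties nectins to actin, and the polarity genes Llgl1, Llgl2, Mark2, Dlg1, Pard6a and Pard6b were lost as well, from medians of 1.08 to 7.25 in the others. Jup and Rdx completed the lost members. Mark3, a polarity kinase, was raised, from a median of 4.82 to 26.2. The list's median exon length was 3623 bases, and the part of length and level in these losses was not tested.

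Tight junction genes were divided. Cldn4 and Cldn7, claudins of the early embryo, were kept at 121 to 279 and 134 to 250 FPKM, against 45.1 to 527 and 45.4 to 231. The lost members included Ocln and Cldn6, while F11r was lowered and Tjp1 and Cgn, both scaffolds of the junction, were raised. The median of Tjp1 was 13.8 in the gene-poor and 4.74 in the other blastomeres. The list held 10 analysed genes, with 3 lost, 1 lowered, 4 kept and 2 raised. Over all analysed genes 27.8% were lost, 14.9% lowered, 48.8% kept and 8.51% raised, so the lost share was near that of all genes. The median difference of the list was -0.28, against -0.61 over all analysed genes. Without S57 it was 0.24, against -0.41.

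Of 14 genes of H3K9 methylation and heterochromatin 5 were lost, 3 lowered, 6 kept and none raised, against 27.8% lost, 14.9% lowered, 48.8% kept and 8.51% raised over all analysed genes. The part of length and level was not tested. The list had a median difference of -1.66 (-2.11 without S57). The lost ones were Suv39h1, Setdb1 and Ehmt2, which methylate histone H3, the histone chaperone Daxx, and Zfp809, a zinc finger protein that silences retroviral elements. Setdb1 was at 1.41, 0.0113, 0, 17.8, 0 and 6.72 FPKM in S53 to S58 and at 2.03 to 20.2 in the others. The abundant Trim28 and Cbx3 were kept. Of 10 DNA methylation genes Dnmt1, Dnmt3b, Tet1 and Uhrf1 were lost, Mbd3 lowered, Mbd4 raised and 4 kept. Dnmt1, the maintenance methyltransferase, was above 1 FPKM in 1 of the 6 and in 15 of the 20 others. Single gene-poor blastomeres differed widely in these genes, as Ehmt2 shows with 31.6 FPKM in S54 and at most 1.77 in the remaining 5.

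Of 21 pluripotency factors 13 were kept, 4 lowered and 4 lost, against 48.8%, 14.9% and 27.8% of all analysed genes. Dppa5a, Dppa2 and Tdgf1, the most abundant, differed by 0.53, -0.12 and 0.97. Pou5f1, the core factor of the pluripotency network, was lowered, at 137, 59.3, 49.8, 28.8, 36 and 53.9 FPKM against 27.8 to 178 with a median of 124. Esrrb, Lin28a, Klf4 and Sox21 were lost. Lin28a, an RNA-binding protein, was at 0 in S53, S56 and S57, 0.244 in S55, 3.23 in S54 and 5.51 in S58, and above 1 in 19 of the 20 others. Of 14 genes of trophectoderm and Hippo signalling 9 were kept, with Tead4 at 33 to 164 against 24.7 to 158, 3 lowered, and Lats2 and Tead1 lost.

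Of 5 analysed genes of the subcortical maternal complex, a structure of the oocyte cortex, Padi6 and Tle6 were lost and 3 were kept. Padi6 was at 33.7 in S55, 19.8 in S54 and 0 in the remaining 4, against 5.71 to 59.4, while Khdc3 was at 138 to 975 against 5.92 to 872. Of 4 analysed genes of oocyte and meiotic maturation 3 were kept, and Npm2, a maternal histone chaperone, was raised, at 31.7, 49.7, 14.5, 42, 0 and 97.5 against 0 to 26.7. Of 16 genome activation factors 9 were kept, 5 lowered and 2 lost, and of 16 genes of maternal mRNA decay 7 were kept, 3 lowered, 5 lost and 1 raised, against 27.8% lost, 14.9% lowered, 48.8% kept and 8.51% raised over all analysed genes. Cnot8, Cnot7 and Cnot2, subunits of the main deadenylase, were kept, and Cnot6l, a catalytic subunit of the same complex, Pan2, a deadenylase, Dcp1a, a decapping factor, and the uridylyltransferases Tut4 and Tut7 were lost. Pan3, the partner of Pan2, was raised.

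The counts of the following lists stand against 27.8% lost, 14.9% lowered, 48.8% kept and 8.51% raised over all analysed genes. Ccnb1, the mitotic cyclin, was at 1082 to 1932 FPKM against 851 to 1315, and Cdc20 and Ube2c, which drive mitotic exit, were kept too. Of 41 mitosis genes 9 were lost, 9 lowered, 20 kept and 3 raised. Of 44 DNA replication genes 29 were kept, with Rrm2, Gmnn and Rpa2 the most abundant, 6 lost, 7 lowered and 2 raised. Of 37 nuclear pore and transport genes 22 were kept, among them Ranbp1, Kpna2 and Ran, 12 lowered and 3 lost. Of 79 genes of the transcription machinery 48 were kept, 14 lost, 12 lowered and 5 raised; Polr2g was at 117 to 331 against 11.4 to 102, and Taf15 was lost without overlap.

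Of 18 genes of the p53 and stress response 3 were raised, 10 kept, 4 lowered and 1 lost, against 8.51% raised over all analysed genes, and the median difference was -0.33. Without S57 the list median was -0.027, against -0.41 over all analysed genes. Cdkn1a, the p21 inhibitor of cyclin-dependent kinases, was at 28.4, 191, 149, 127, 23 and 157 FPKM against 6.57 to 148 with a median of 38. Phlda3, a p53 target that restrains Akt signalling, was at 26.6, 59, 36.8, 26.1, 0 and 83.3 against 0 to 22.8, so 5 of the 6 lay above every other blastomere. Its 4-cell median was 0. Hmox1, haem oxygenase, was the third raised gene. Atf4, a stress transcription factor and the most abundant member, was lowered. Of 16 heat shock chaperones 11 were kept, 3 lowered and 2 lost. Hspa8, Hsp90ab1 and Hsp90aa1, the most abundant, differed by -0.33, -0.30 and -0.44. Of 13 genes of the Bcl2 family and caspases 8 were kept, with Casp6, Bax and Mcl1 the most abundant, and 3 were lost, among them the survival gene Bcl2l1.

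Of 25 genes of pyruvate, lactate and glucose use 16 were kept, 7 lost and 2 lowered, a lost share near the 27.8% of all analysed genes. Ldha and Ldhb, the subunits of lactate dehydrogenase, were each above 1 FPKM in 1 of the 6 gene-poor blastomeres and in 15 of the 20 others. Ldha was at 11.3 in S55 and 0 elsewhere in the group, and Ldhb at 77.7 in S53 and 0 elsewhere, with medians of 32.5 and 26.6 in the others. Gpi1, Hk1, Pfkl, G6pdx and the transporter Slc2a3 were lost as well. Pdhb, Mpc2 and Aldoa, the most abundant members, were kept. All genes named here from a list beyond its 3 most abundant members and those without overlap were chosen after their values were seen.

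X-linked genes stood apart from autosomal ones in the comparison with all 20 others. Of 232 analysed X-linked genes 46 (19.8%) were raised and 51 (22%) lost, against 8.14% raised and 27.9% lost of 7110 autosomal genes. Against the 8 others without Y-linked transcripts, a comparison chosen after the data were seen, 12.5% of X-linked and 12% of autosomal genes were raised. The median difference there was -0.24 for X-linked and -0.43 for autosomal genes, and against all 20 others it was 0 and -0.64. When the same 8 blastomeres were set against the 12 with Y-linked transcripts, 28.9% of X-linked, 10.3% of autosomal and 10.9% of all genes were higher by at least 1 on the log2 scale. Fthl17f, an X-linked ferritin-like gene that was raised with a 4-cell median of 0, was at 145, 80.7, 64.5, 0, 0 and 137 FPKM in S53 to S58 and at most 22.1 in the others. The part of the sex chromosomes in the X-linked and autosomal differences was not tested.

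The repeat table of the same libraries gave a second readout, counted here only as copies with a value above 0. The 6 gene-poor blastomeres and the 15 others whose columns could be matched by name were used. In all, 9582 to 33771 repeat copies were above 0 in the gene-poor blastomeres and 26447 to 44042 in the others. Of 55 repeat families with a mean of at least 100 copies, 51 had a lower median in the gene-poor blastomeres and 4 a higher one, and 10 were lower without overlap. The median ratio of gene-poor to other medians was 0.477, and 0.512 without S57. Without S57, B1_Mus1 and B1_Mus2 also had the higher median in the gene-poor group, by ratios of 1.03 and 1.22 (0.837 and 0.961 with it). Copies of L1Md_A, a young LINE family, had medians of 69.5 and 271, and those of AT_rich low-complexity sequence 759.5 and 1591.

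The 4 families with a higher median were the rodent SINEs B2_Mm1a, B2_Mm1t and B1_Mm and the long terminal repeat MTA_Mm, which is active in oocytes. They divided the gene-poor blastomeres. B2_Mm1a had 3718, 3338 and 4758 copies above 0 in S53, S54 and S55, and 1768, 860 and 1483 in S56, S57 and S58, against 1178 to 2887 in the others. B1_Mm had 1418, 1368 and 1417 copies in the first 3 and 740, 346 and 630 in the last 3, against 636 to 1066. S53 to S55 thus lay above every other blastomere in both families, while S56 to S58 lay within or below the range. The 6 blastomeres are gene-poor by 1 rule, but in these repeats they did not form 1 group.

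The 4-cell table held 4 blastomeres with fewer than 5500 genes, S18, S20, S21 and S24, at 3009, 3699, 5336 and 4939 genes. Against the other 20, 33.9% of 7710 genes were lost, 19.7% lowered, 39.8% kept and 6.54% raised. From the shortest to the longest bin of exon length 28.3%, 32.1%, 36.2% and 34.2% were lost. At the 4-cell stage 4.81% of genes under 1 kb and 11.6% of genes of 4 kb or more were raised, the opposite order to the 8-cell stage. Over the 6623 analysed genes with a median above 1 FPKM in the other 20 4-cell blastomeres, the median difference from the other 4-cell blastomeres was -2.39 in S18, -1.79 in S20, -0.41 in S21 and -0.52 in S24 on the log2 scale. For the genes lost at the 8-cell stage it was -2.39, -2.26, -1.34 and -1.72 in the same order. For the genes raised there it was -3.43, -2.66, -0.51 and -0.28. The lost genes were thus lower than all genes in S20, S21 and S24 and level with them in S18. The raised genes were lower in S18, S20 and S21 and higher in S24. Genes entered here by their level in the other 20, and the 4 blastomeres were chosen for few genes. Falls therefore follow in part from the choice. The 4-cell level had a median of 4.71 FPKM over lost genes and 13.6 over all analysed genes. The part of level in these differences was not tested. The order of the raised shares by length thus differed between the stages, and this difference was not tested.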

How the data were processed

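Blastomeres of 4-cell and 8-cell mouse embryos were dissociated and sequenced singly by Smart-seq2. Per the study's methods, the authors aligned reads to mm10 with STAR 2.5.1b at default settings, kept uniquely aligned reads and counted them over RefSeq genes with HTSeq-count. The deposited gene values are FPKM, with gene lengths and totals not given in the sources used here. The deposited repeat values are a signal per annotated copy whose normalisation is not stated, so only copies above 0 were counted.

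The labels list 31 8-cell and 36 4-cell samples, and the tables hold 26 and 24 columns, 5 of them named NA. No column name matched a sample, and columns were not assigned by order or depth, although these point to 1 embryo for the gene-poor group. Blastomeres are therefore no replicates, the groups come from the measured gene number, and no test was run. The members and gene lists were chosen with earlier results of these data known.

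Group medians of log2(FPKM + 1) were compared for genes with a mean of at least 1 on that scale. Bins of 8-cell level use that mean, turned back to FPKM. Fragment numbers were estimated from the steps between low FPKM values with RefSeq exon lengths: 91.1% to 96.4% of values under 10 fragments came within 0.1 of a whole number. Values at the lowest depth are binomial expectations from these fragments. Exact binomial intervals cover 95%. In data simulated with the same exon lengths and large changes at middle levels, the scripts recovered the fragment totals and most changed genes. That setting covers neither weakly expressed genes nor unknown gene lengths. Of 15342 identifiers, 15320 matched a RefSeq symbol. Named genes were the 10 lost and 10 raised with the largest differences and no overlap, the 6 highest kept, the 5 highest lost with a 4-cell median at or under 1, and the 3 most abundant members of a list with its members lost or raised without overlap. Sets lowered without overlap, genes raised from a 4-cell median at or under 1, and further members were named after their values were seen. Alternatives changed the pseudocount, filter, scaling, group summary, boundary, expression threshold or blastomeres used. Python 3.11.15, numpy 2.4.6, pandas 2.3.3 and scipy 1.17.1 were used. The values of some list members are not reported here.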

Additional observations from a re-analysis of the deposited data

Results flagged for a closer look

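Among 35 measures of the gene-poor blastomeres, 14 had a highest or lowest value that lay far from the other 5, by a gap of more than 0.625 of the range. Chance flags about 1 in 20 groups of normally spread values, and FPKM values with many zeros are not so spread. For depth and abundant transcripts the blastomere that stood apart was S57. It had 2.33 M (mega) estimated fragments, 31.2% of its summed FPKM in the 100 highest genes, and the highest Dppa3 (10166), Twf1 (248) and Nmt2 (195) FPKM. In S57 the lost genes Enpp3 (1.07) and Pdia5 (2.14) also had their highest values. Other blastomeres stood apart for Toe1 (0.0538), Steap3 (1.19) and Itch (0.0401), all highest in S53. Eif2ak1 (2.48) and Cebpzos (20.5) were highest in S54, Hinfp (0.0256) in S56 and 2610524H06Rik (217) in S58.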

How the results depend on the processing

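No paired analysis was possible because groups were formed from measured values and their blastomeres share no number. The numbers of genes per blastomere, of raised genes and of snoRNA intervals stayed within 1.5 times their value or within the spread under every alternative run for them. The number of lowered genes (1095) did not: it was 701 without the blastomere of lowest depth, 680 to 759 with each gene-poor blastomere left out in turn, 1737 with means in place of medians and 681 with a boundary of 5000 genes. Leaving out 1 blastomere makes the median the value of a single one. With means, 1158 genes were lost, and without a filter 11512 were kept. The share lost among genes with a 4-cell median at or under 1 (45.6%) was 40.2% without the columns named NA, 6.84% without a filter, 34.5% with means, 39.9% at a boundary of 5000 genes, 41.7% and 15.1% with expression thresholds of 0.1 and 5 FPKM, 36.1% against the 8 others without Y-linked transcripts, and 46.7% to 48.9% with each gene-poor blastomere left out. For genes with a 4-cell median above 10 (12.1%) it was 14% with a pseudocount of 0.1, 4.75% with means, 23.6% at 5000 genes, 9.31% and 19.7% with the thresholds of 0.1 and 5 FPKM, and 13% to 17.3% with each blastomere left out. Without the filter this share was 12.1%, so the order of the shares was reversed there and at 5 FPKM. The share of X-linked genes raised was 12.5% against the 8 others without Y-linked transcripts, a comparison chosen after seeing the data. Some medians of gene lists changed sign: tight junctions to 0.24 without S57 and 0.26 without S53 (lowest -0.83, with each gene-poor blastomere left out), DNA replication to 0.00086 without S55 (lowest -0.32), the proteasome to -0.045 after scaling, transcription machinery (-0.16) to 0.0074 without S57, splicing factors (-0.19) to 0.019 at a boundary of 6000 genes, and cyclins of the G1 and S phases to -0.064 with means. Of the list medians, 414 stayed within their spread, those of transcription machinery and splicing factors included, and 30 moved without a change of sign. Except where a construction is named, the cause was not tested. Low depth limits S57 most.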
